A study of Homo sapiens with 6 samples.

Results

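The protein subunits of the mitochondrial ribosome were followed in human LX-2 cells after treatment with rhSema3C. Members were taken by gene symbol, as every gene named MRPL or MRPS with a number and an optional final A or B, without pseudogenes and antisense genes. This gave 77 of the 33900 genes in the table, 49 MRPL genes named for the large subunit and 28 MRPS genes named for the small subunit. All 77 were among the 14178 genes that passed the filter on low values, an average FPKM of 0.5 or more across samples. FPKM counts fragments relative to transcript length and to library size.

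LX-2 is an established, immortalised line of hepatic stellate cells, the liver cells that make collagen when activated, and was labelled as wild type. The treated group held 3 samples that received 300.0 ng/ml of rhSema3C, recombinant human Sema3C, for 48 h, and the control group held 3 samples that received PBS for the same time. Both groups grew in DMEM with serum, and total RNA went into libraries made with an mRNA kit. The labels call the samples biological replicates but do not say whether they came from separate cultures, so the p-values measure the spread between these samples.

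Total counts lay between 68267808 and 89245585 per sample. Mitochondrially encoded genes took 4.75% to 5.42% of the counts in PBS samples and 3.73% to 3.93% in rhSema3C samples. Of 15 stellate cell markers, 10 passed the filter, with VIM at a mean FPKM of 935 and COL1A1 at 78.0, whereas COL1A2, DES, LRAT, DCN and RGS5 did not pass. None of the 10 was called higher and 7 were called lower (adjusted p below 0.05 by edgeR), against 31.7% and 30.6% of all genes tested. Among the 7, THY1 fell by 0.96 and COL1A1 by 0.78 on the log2 scale. Of 11 markers of other liver cells in the table, only CD68 and KDR passed the filter. Without CD68, which fell by 0.58 on the log2 scale, the other 10 summed to an FPKM of 0.914 to 1.69 in PBS samples and 1.45 to 1.79 in rhSema3C samples, and ALB, APOA1, EPCAM, PTPRC and CD3E stood at 0 in most samples. HNF4A, KRT19 and PECAM1 were detected at low level. The endothelial gene VWF, below the filter, was counted 87, 71 and 88 times in PBS samples and 606, 513 and 653 times in rhSema3C samples, so these groups did not overlap, and its part in the results was not tested. In bulk RNA, fewer cells of a type and less RNA per cell cannot be told apart.

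The mitochondrial ribosome translates the mRNAs that the mitochondrial genome encodes, all of which specify subunits of the oxidative phosphorylation complexes. Its rRNAs come from mitochondrial DNA, whereas its proteins are encoded in the nucleus, made in the cytosol and imported. The small subunit decodes the mRNA, and the large subunit joins the amino acids and sends the nascent chain toward the inner membrane. Many members descend from bacterial ribosomal proteins, and the others are found only in mitochondria.

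The stretches before the transcription start are shown for 4 members, the most abundant member of each subunit, both of which fell, and the member of each subunit that was higher under every processing setting. They are the 250 bases upstream of the start in RefSeq on GRCh38.p14, read 5′ to 3′ on the gene's strand, with capitals marking each match of CCGGAAG, the core bound by the ETS factor GABP, on either strand. MRPL12 lies on the plus strand with its window at chr17:81703117-81703366, MRPS34 on the minus strand at chr16:1773135-1773384, MRPL58 on the plus strand at chr17:75012420-75012669 and MRPS10 on the minus strand at chr6:42217862-42218111.
MRPL12: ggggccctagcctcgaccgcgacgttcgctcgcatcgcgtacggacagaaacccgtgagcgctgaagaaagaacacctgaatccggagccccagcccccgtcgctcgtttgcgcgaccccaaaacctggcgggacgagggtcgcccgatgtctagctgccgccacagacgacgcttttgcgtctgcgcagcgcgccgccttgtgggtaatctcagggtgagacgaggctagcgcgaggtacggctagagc
MRPS34: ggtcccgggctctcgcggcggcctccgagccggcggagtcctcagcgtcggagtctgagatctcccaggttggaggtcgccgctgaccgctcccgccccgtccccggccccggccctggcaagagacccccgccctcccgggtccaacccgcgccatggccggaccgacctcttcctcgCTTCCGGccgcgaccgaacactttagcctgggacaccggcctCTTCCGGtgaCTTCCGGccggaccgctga
MRPL58: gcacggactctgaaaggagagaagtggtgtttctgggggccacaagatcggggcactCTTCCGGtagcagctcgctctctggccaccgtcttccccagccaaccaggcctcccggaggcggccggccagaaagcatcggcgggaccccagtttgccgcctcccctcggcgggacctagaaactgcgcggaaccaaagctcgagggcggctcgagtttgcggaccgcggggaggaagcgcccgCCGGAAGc
MRPS10: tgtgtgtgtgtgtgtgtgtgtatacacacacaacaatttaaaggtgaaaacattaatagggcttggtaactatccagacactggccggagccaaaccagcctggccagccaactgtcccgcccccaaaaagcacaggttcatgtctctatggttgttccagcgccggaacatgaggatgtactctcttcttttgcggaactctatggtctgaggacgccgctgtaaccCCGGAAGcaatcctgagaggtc

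The window of MRPL12, which fell, held no match, and that of MRPS34, which also fell, held 3. Among the members that rose, MRPL58 had 2 matches and MRPS10 had 1. RefSeq windows were at hand for 68 of the 77 members, 84 windows in all since some genes have several starts. CCGGAAG on either strand was present in 26 of the 84 windows (31.0%), against 8.52% of 35116 windows of all genes. Windows of members that fell held it in 12 of 47 cases (25.5%) and windows of members that rose in 6 of 16 (37.5%). Windows of members that were not called held it in 8 of 21 cases (38.1%). Matches thus stood before members of either direction and before members without a call. The palindromic NRF1 motif was found in 11.9% of member windows and 5.07% of all windows, the YY1 motif AAGATGGC in 8.33% and 1.36%, and the E-box CACGTG in 8.33% and 6.34%, each on both strands. GC content had a median of 61.0% in member windows and 58.0% in all windows. A match describes letters and was not tested as a binding site.

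The comparison of rhSema3C with PBS asked whether the mRNAs of the mitochondrial ribosome moved together. More members fell than rose. By edgeR's quasi-likelihood test with an adjusted p below 0.05, 38 of the 77 members were lower (49.4%), 15 were higher (19.5%) and 24 did not pass. Among all 14178 genes tested, 62.3% were called, 30.6% lower and 31.7% higher, so a call by itself was common in these samples. The median log2 fold change was -0.21 over the members and 0.02 over all genes tested. No member passed the stricter rule of a fold change above 2 with an unadjusted p below 0.05, which 5.54% of all genes passed (3.42% higher and 2.12% lower), and the members' log2 fold changes lay between -0.91 and 0.53.

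Both subunits held falls and rises. In the large subunit 26 of 49 members were lower (53.1%), 7 were higher and 16 did not pass, with a median log2 fold change of -0.23. In the small subunit 12 of 28 were lower (42.9%), 8 were higher and 8 did not pass, with a median of -0.045. Without PBS replicate 2, or without rhSema3C replicate 2, 5 small subunit members were higher. The 3 rhSema3C samples did not overlap the 3 PBS samples for 40 members that were lower and 18 that were higher, against 33.3% and 34.6% of all genes in the same directions. Among the called members, MRPL34 was the one whose groups overlapped.

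**Figure D1:**
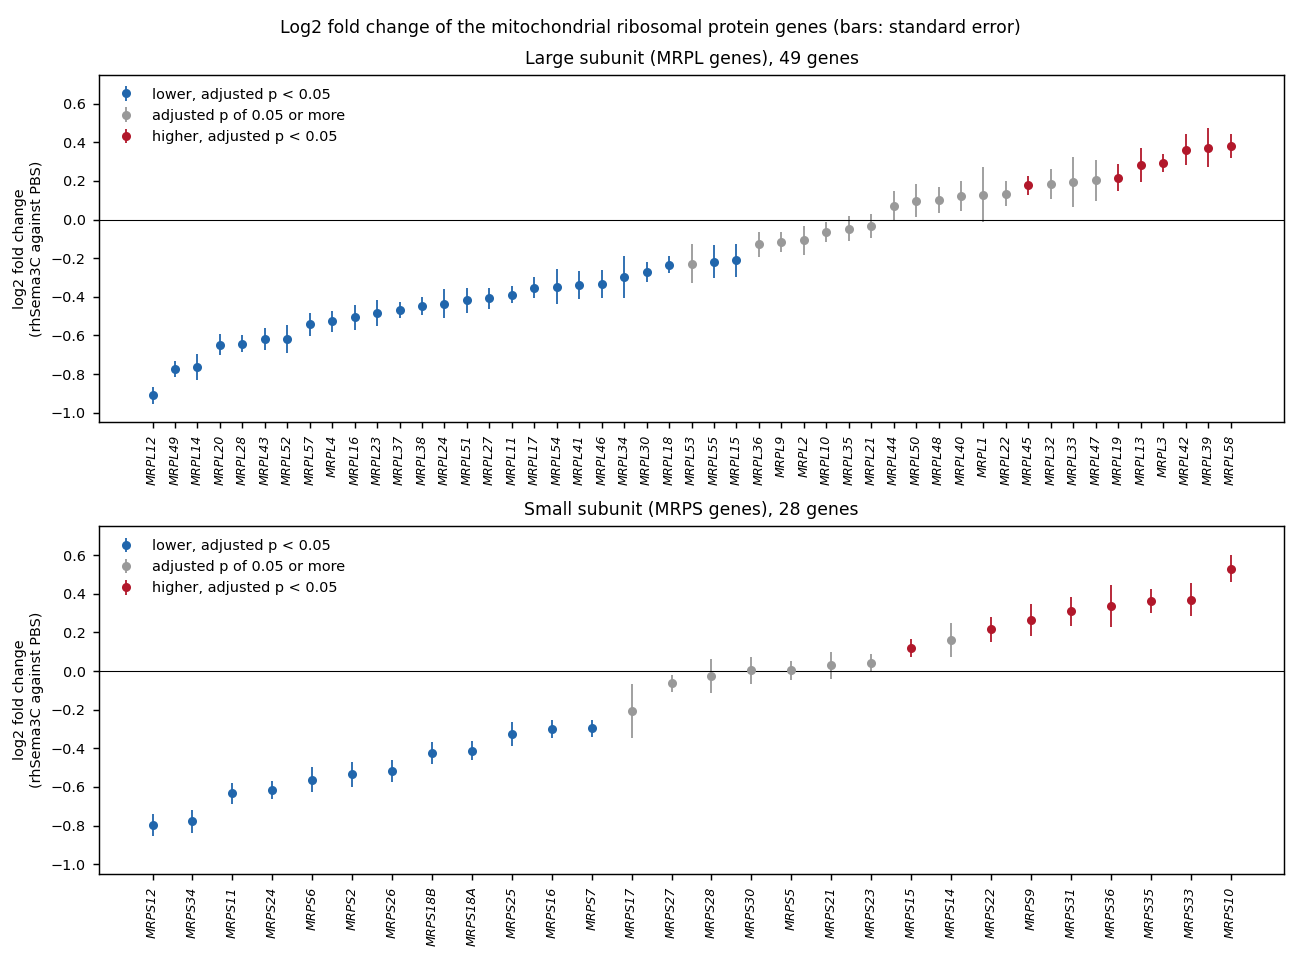
Log2 fold change (rhSema3C against PBS) of the 49 large subunit and 28 small subunit members, with bars for the standard error and colours for the edgeR call. Values run from -0.91 for MRPL12 to 0.53 for MRPS10, with 26 and 12 members lower and 7 and 8 higher.

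The members with the largest falls in the large subunit were MRPL12, MRPL49, MRPL14, MRPL20 and MRPL28. MRPL12, which forms the flexible stalk that recruits translation factors, was also the member with the highest level, at a mean FPKM of 89.03. Its CPM (the count scaled to library size, with TMM factors) was 123, 122 and 121 in the PBS samples, in replicate order, and 64.3, 67.8 and 62.6 in the rhSema3C samples. Every treated sample stood far below every control. The fall was 0.91 on the log2 scale (SE 0.04, adjusted p = 3.3e-08 by edgeR), from a mean of 122 ± 1.35 to 64.9 ± 2.67 CPM (SD, 3 samples each). The gene spans chr17:81703367-81707517 on the plus strand and overlaps the unnamed gene AC139530 on the same strand.

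MRPL49, a subunit specific to mitochondria, stood at 182, 180.3 and 169 CPM in PBS samples and 104, 103 and 104 CPM in rhSema3C samples. MRPL14, the counterpart of bacterial L14 and the docking site of the assembly factor MALSU1, stood at 59.1, 53.1 and 57.9 CPM against 32.1, 35.8 and 32.2 CPM. The treated samples of both genes lay close together and below all controls. The log2 fold change was -0.77 for each (SE 0.04 and 0.07, adjusted p = 7.0e-08 and 2.4e-06 by edgeR). MRPL49 (chr11:65122183-65127371, plus strand) overlaps SYVN1 on the other strand, and MRPL14 (chr6:44113451-44127452, minus strand) overlaps TMEM63B on the other strand.

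MRPL20, the counterpart of a bacterial protein that binds rRNA early in assembly, went from 52.2, 51.5 and 50.9 CPM to 32.2, 33.1 and 33.4 CPM. MRPL28, another member with a bacterial counterpart, went from 119, 113 and 115 CPM to 74.998, 75.4 and 71.8 CPM. Within each group the samples of these genes differed by only a few CPM. MRPL20 fell by 0.65 (SE 0.05, adjusted p = 1.8e-06 by edgeR) and MRPL28 fell by 0.64 on the log2 scale (SE 0.04, adjusted p = 3.1e-07 by edgeR). MRPL20 (chr1:1401909-1407293, minus strand) overlaps the antisense gene MRPL20-AS1, whose counts came to 27.8% of its own, and whether strand was used in counting is not given in the sources used here. MRPL37, a mitochondria-specific subunit with the second highest level of the large subunit at a mean FPKM of 73.1, went from 220.3, 233 and 218 CPM to 163, 162 and 160.4 CPM, a log2 fold change of -0.47 (SE 0.04, adjusted p = 2.3e-06 by edgeR).

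The largest rises of the large subunit were smaller than its largest falls. MRPL58, also known as ICT1, is a peptidyl-tRNA hydrolase that frees stalled ribosomes as well as a subunit. It stood at 25.1, 26.8 and 26.0 CPM in PBS samples and 34.6, 33.7 and 33.1 CPM in rhSema3C samples, so that the groups were well apart. The log2 fold change was 0.38 (SE 0.06, adjusted p = 3.0e-04 by edgeR). The gene (chr17:75012670-75021261, plus strand) overlaps no other gene of the table.

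MRPL39, a mitochondria-specific subunit, went from 25.9, 24.6 and 20.0 CPM to 30.04, 33.1 and 28.0 CPM. MRPL42, also specific to mitochondria and the member with the lowest level at a mean FPKM of 2.47, went from 38.3, 34.0 and 36.8 CPM to 45.1, 52.0 and 43.1 CPM. In both genes the groups were apart, but the replicates spread more widely than those of MRPL58. Their log2 fold changes were 0.37 (SE 0.10, adjusted p = 0.00751) and 0.36 (SE 0.08, adjusted p = 0.00207 by edgeR). MRPL3, whose bacterial counterpart L3 reaches toward the peptidyl transferase centre, went from 78.9, 74.5 and 73.6 CPM to 90.3, 96.3 and 91.3 CPM, a log2 fold change of 0.29 (SE 0.05, adjusted p = 2.5e-04 by edgeR). MRPL13, the counterpart of bacterial L13, went from 26.3, 22.6 and 23.8 CPM to 27.8, 32.7 and 28.0 CPM, a log2 fold change of 0.28 (SE 0.09, adjusted p = 0.0146 by edgeR). The lowest treated sample of MRPL13 stood just above its highest control, and the call was lost without rhSema3C replicate 2 (adjusted p = 0.0677) and without PBS replicate 2 (adjusted p = 0.0575 by edgeR).

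The large subunit member nearest to no change was MRPL21, at 33.0, 33.9 and 32.6 CPM in PBS samples and 32.3, 31.6 and 33.2 CPM in rhSema3C samples. Its groups overlapped, with a log2 fold change of -0.035 (SE 0.06, adjusted p = 0.638 by edgeR). Further members that were lower included MRPL43, MRPL52, MRPL57, MRPL4, MRPL16 and MRPL23, with log2 fold changes between -0.62 and -0.48. MRPL19 and MRPL45 were the other two that rose, by 0.22 and 0.18 on the log2 scale.

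In the small subunit the largest falls were those of MRPS12, MRPS34, MRPS11, MRPS24 and MRPS6. MRPS12, which sits at the decoding centre, stood at 57.1, 56.9 and 54.8 CPM in PBS samples and 31.2, 32.5 and 33.6 CPM in rhSema3C samples. MRPS34, a mitochondria-specific subunit with the highest level of the small subunit at a mean FPKM of 74.7, stood at 111, 105 and 104 CPM against 60.2, 58.7 and 68.3 CPM. Every treated sample of both genes was far below every control. MRPS12 fell by 0.80 (SE 0.06, adjusted p = 5.1e-07 by edgeR) and MRPS34 fell by 0.78 on the log2 scale (SE 0.06, adjusted p = 8.8e-07 by edgeR). MRPS12 (chr19:38930548-38933020, plus strand) overlaps SARS2 on the other strand, and MRPS34 (chr16:1771890-1773150, minus strand) overlaps EME2 on the other strand.

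MRPS11, the counterpart of bacterial S11 on the platform, went from 81.0, 79.9 and 80.4 CPM to 52.7, 48.2 and 54.7 CPM. MRPS24, the counterpart of bacterial S3, went from 102, 110.2 and 100.2 CPM to 68.8, 67.4 and 67.8 CPM. MRPS6, the counterpart of bacterial S6, went from 43.9, 45.4 and 41.4 CPM to 28.8, 30.4 and 29.4 CPM. None of these groups overlapped, and the falls were 0.63, 0.62 and 0.56 on the log2 scale (SE 0.05, 0.05 and 0.06, adjusted p = 2.1e-06, 8.5e-07 and 1.5e-05 by edgeR). MRPS24 shares its strand with the readthrough gene URGCP-MRPS24 and MRPS6 with SLC5A3, so their counts may be split between genes.

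MRPS10, a protein of the small subunit head, had the largest rise of all members. Its level was 49.2, 42.8 and 42.5 CPM in PBS samples and 65.4, 68.2 and 60.6 CPM in rhSema3C samples, with a wide gap between the groups. The log2 fold change was 0.53 (SE 0.07, adjusted p = 5.4e-05 by edgeR), a rise of 44.3%. The gene (chr6:42206807-42217861, minus strand) overlaps no other gene of the table.

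Of the mitochondria-specific subunits that rose, MRPS33 went from 16.7, 14.9 and 15.8 CPM to 19.4, 21.3 and 20.7 CPM. MRPS35 went from 73.8, 64.4 and 62.3 CPM to 83.7, 88.4 and 86.2 CPM. MRPS31 went from 34.2, 28.7 and 31.5 CPM to 37.4, 40.8 and 38.7 CPM. The treated samples of these 3 genes lay above all their controls, with log2 fold changes of 0.37, 0.36 and 0.31 (SE 0.08, 0.06 and 0.08, adjusted p = 0.00272, 4.0e-04 and 0.00397 by edgeR). MRPS36, which carries a ribosomal name but is now known as a subunit of the oxoglutarate dehydrogenase complex, went from 14.8, 12.6 and 14.1 CPM to 15.1, 19.1 and 18.2 CPM. Its lowest treated sample was only slightly above its highest control, at a log2 fold change of 0.33 (SE 0.11, adjusted p = 0.0191 by edgeR). That call was lost without PBS replicate 2, rhSema3C replicate 2 or rhSema3C replicate 3, at adjusted p = 0.0743, 0.0736 and 0.0652 by edgeR.

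**Figure D2:**
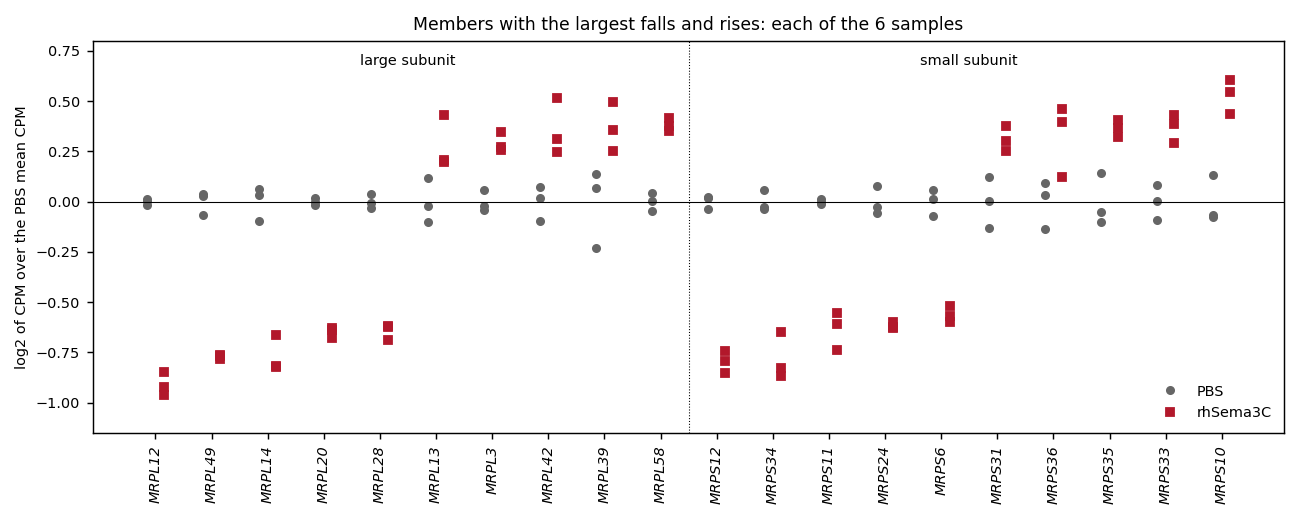
Level in each of the 6 samples as log2 of CPM over the PBS mean of the same gene, for the members with the largest falls and rises, PBS in grey circles and rhSema3C in red squares. The 20 genes were chosen among called members whose groups do not overlap, so by that rule all squares lie wholly below or wholly above the circles. The narrowest gaps are those of MRPS36 and MRPL13.

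Some members carry a name that differs from their place. MRPS18A and MRPS30 sit in the large subunit in structures of the human ribosome. MRPS18A went from 69.7, 70.0 and 67.6 CPM to 52.6, 53.1 and 49.98 CPM, a log2 fold change of -0.41 (SE 0.05, adjusted p = 2.3e-05 by edgeR). MRPS30 stood at 81.6, 73.8 and 66.6 CPM in PBS samples and 76.4, 74.8 and 71.4 CPM in rhSema3C samples. The treated samples of MRPS30 lay inside the control range, and its log2 fold change was 0.003 (SE 0.07, adjusted p = 0.976 by edgeR). MRPS18B, a small subunit relative of MRPS18A and the second most abundant small subunit member at a mean FPKM of 51.4, went from 109, 111 and 100.3 CPM to 79.2, 75.4 and 84.8 CPM, and its log2 fold change was -0.42 (SE 0.06, adjusted p = 5.8e-05 by edgeR). With MRPS18A and MRPS30 counted in the large subunit and MRPS36 left out, 27 of 51 large subunit members were lower and 7 higher. In the small subunit 11 of 25 were then lower and 7 higher, against 30.6% and 31.7% of all genes tested.

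Some members are given by their place in the ribosome, in groups taken from known structures after the values were seen. The groups are not complete, so their falls and rises do not describe a place as a whole. In the stalk that recruits translation factors, MRPL12 and MRPL11 had log2 fold changes of -0.91 and -0.39, and MRPL10, which anchors MRPL12, had -0.065 and was not called (adjusted p = 0.28 by edgeR). Around the exit of the peptide tunnel, MRPL23, MRPL24 and MRPL17 fell by 0.48, 0.43 and 0.35, and MRPL45, which holds the ribosome at the inner membrane, rose by 0.18, with MRPL22 and MRPL47 at 0.13 and 0.20 and no call. In the central protuberance MRPL38 and MRPL46 fell by 0.45 and 0.33, and MRPL40 and MRPL48 were at 0.12 and 0.10 without a call. In the small subunit head MRPS7 fell by 0.30, MRPS9 and MRPS10 rose by 0.26 and 0.53, and MRPS14 was at 0.16 without a call.

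Members with a counterpart in bacterial ribosomes fell in 24 of 45 cases and rose in 6, with a median log2 fold change of -0.23. Mitochondria-specific members fell in 13 of 30 cases and rose in 9, with a median of -0.031. In the small subunit 9 of 16 members with a counterpart, MRPS18A and MRPS18B among them, were lower and 3 were higher. Of 11 mitochondria-specific members there, 3 were lower and 5 were higher. Among all genes tested, 30.6% were lower and 31.7% higher. Median GC content was 48.1% in the first of these small subunit groups and 41.7% in the second. As fold changes followed GC content (below), the split was not separated from it. In the large subunit the medians were -0.21 with and -0.33 without a counterpart. MRPL55 and MRPS28 were left out of this split because nomenclatures differ on them. Without MRPS36, 13 of 29 mitochondria-specific members were lower and 8 higher, with a median of -0.064, and in the small subunit 3 of 10 were lower and 4 higher. By level, 15 of the 24 large subunit members above the subunit's median FPKM were lower and 4 higher, and of the 25 others 11 and 3. In the small subunit 9 of 14 above the median were lower and 3 higher, and of the 14 others 3 and 5. Members above the median also had more GC, with medians of 52.0% against 44.2% (large) and 49.5% against 42.4% (small). Their median standard errors were smaller, so level was not separated from GC content or precision.

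The summed level of each subunit was lower in every rhSema3C sample than in every PBS sample. Large subunit members summed to 2711, 2659.7 and 2658 CPM in PBS samples and 2125, 2221 and 2165.6 CPM in rhSema3C samples. Small subunit members summed to 1736, 1699.7 and 1656 CPM against 1473, 1488 and 1477 CPM. The means were 2676 ± 30.2 and 2171 ± 48.1 CPM for the large subunit, a change of -18.9%, and 1697 ± 40.0 and 1479.5 ± 7.31 CPM for the small subunit, a change of -12.8% (SD, 3 samples each). The ratio of large to small was 1.56, 1.56 and 1.61 in PBS samples and 1.44, 1.49 and 1.47 in rhSema3C samples. The groups did not overlap in this ratio, whose mean was 1.58 ± 0.024 against 1.47 ± 0.025, a change of -6.99%. The size of the falls depends on the TMM factors, which were 0.958 to 0.968 in PBS samples and 1.03 to 1.04 in rhSema3C samples. The sum of all members changed by -16.5% in CPM, and their share of the raw counts by -10.1%. Since the members were chosen with results known, the sums carry no p-value.

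**Figure D3:**
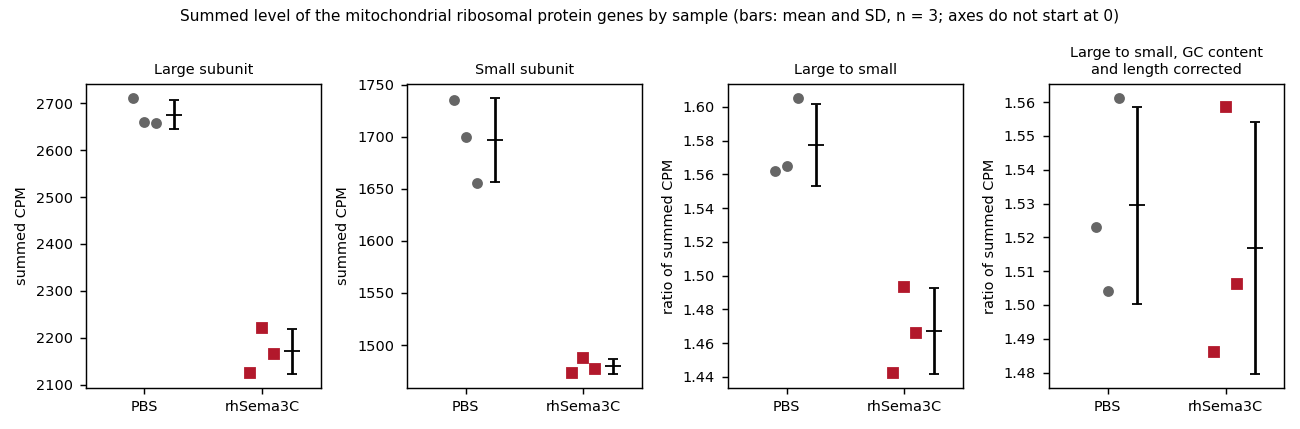
Summed CPM of the large and the small subunit members, their ratio, and the ratio after correction for GC content and transcript length, for each PBS (circles) and rhSema3C (squares) sample with mean and SD bars; the axes do not start at 0. The groups are apart in the first 3 panels and overlap in the fourth, where the ratio differs by -0.82%.

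The log2 fold changes moved with the GC content of the transcripts, among members as among all genes. Over all 14096 genes with a known GC content, Spearman's rho between log2 fold change and GC content was -0.48, a description across genes, which are not independent replicates. It was -0.60 over the 49 large subunit members and -0.69 over the 28 small subunit members. In the lowest of 3 equal GC classes of all genes (up to 44.3% GC), 58.0% of all genes were higher and 7.13% lower, and 11 of 26 members were higher and 4 lower. In the middle class, 31.3% of all genes were lower and 27.1% higher, and 16 of 29 members were lower and 4 higher. In the highest class (from 53.8% GC), 53.7% of all genes were lower and 10.1% higher, and 18 of 22 members were lower and none higher. The median log2 fold change of members was 0.19, -0.23 and -0.47 in the lowest, middle and highest class, below the medians of 0.30, -0.014 and -0.28 for all genes in each.

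**Figure D4:**
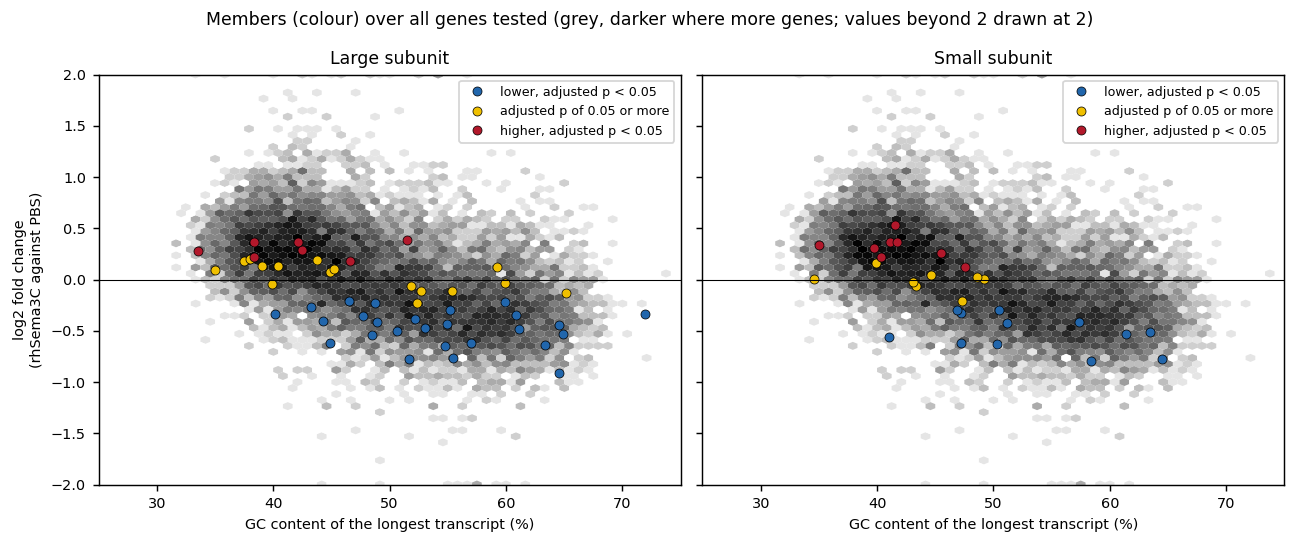
Log2 fold change (rhSema3C against PBS) against the GC content of the longest transcript, for large (left) and small subunit members (right) in colour over all genes tested in grey. Members follow the slope of the grey cloud, with Spearman's rho of -0.60 and -0.69.

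With GC content and transcript length removed across all genes, most of the falls were still called and most of the rises were not. In that fit 25 large and 16 small subunit members were lower, 3 large and 1 small subunit members were higher, against 28.7% of all genes lower and 27.0% higher, and the median was -0.19 for the large and -0.23 for the small subunit against 0.00 for all genes. The median of the small subunit, above that of the large subunit before, was then below it. MRPL12 fell by 0.66 (adjusted p = 8.3e-07), and MRPL58 and MRPS10 rose by 0.48 and 0.27 on the log2 scale (adjusted p = 3.7e-05 and 0.00192 by edgeR). MRPL39, MRPL42, MRPL3, MRPL13, MRPS33, MRPS35, MRPS36 and MRPS31 had log2 fold changes between -0.0091 and 0.12 there, with no call. MRPL21 and MRPL40 were called higher in this fit, at 0.26 and 0.39, and MRPS30 was called lower at -0.29. Of the 38 members called lower without the correction, MRPL54, MRPL34 and MRPL55 lost the call.

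Across all 21 processing settings 26 members were called lower every time, 17 of the large and 9 of the small subunit. MRPL58 and MRPS10 were called higher every time. In single settings, 12.3% to 37.3% of all genes were lower and 12.5% to 48.9% higher. The share of all genes called in every setting is not given here, and the settings refit the same 6 samples. The 26 were MRPL4, MRPL11, MRPL12, MRPL14, MRPL16, MRPL20, MRPL23, MRPL24, MRPL27, MRPL28, MRPL37, MRPL38, MRPL43, MRPL49, MRPL51, MRPL52, MRPL57, MRPS2, MRPS6, MRPS11, MRPS12, MRPS18A, MRPS18B, MRPS24, MRPS26 and MRPS34. No member called in the test above was called the other way by another setting. Of those not called there, 6 (MRPL35, MRPL50, MRPS23, MRPS27, MRPS28 and MRPS30) were called lower with the GC correction, at -0.33 to -0.12, and higher with TPM, at 0.16 to 0.31. Scaling by library size alone moved the median of all genes to 0.13 and rescaling to TPM moved it to 0.23, and the median of the small subunit then stood above 0, at 0.064 and 0.18. Relative to all genes, the median of the large subunit differed by -0.25, -0.25 and -0.23 with TMM, library size and TPM scaling and that of the small subunit by -0.069, -0.069 and -0.048. With the GC and length correction the difference was -0.23 for the small subunit, and with the filter at a mean FPKM of 5 it was 0.062, above all genes.

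**Figure D5:**
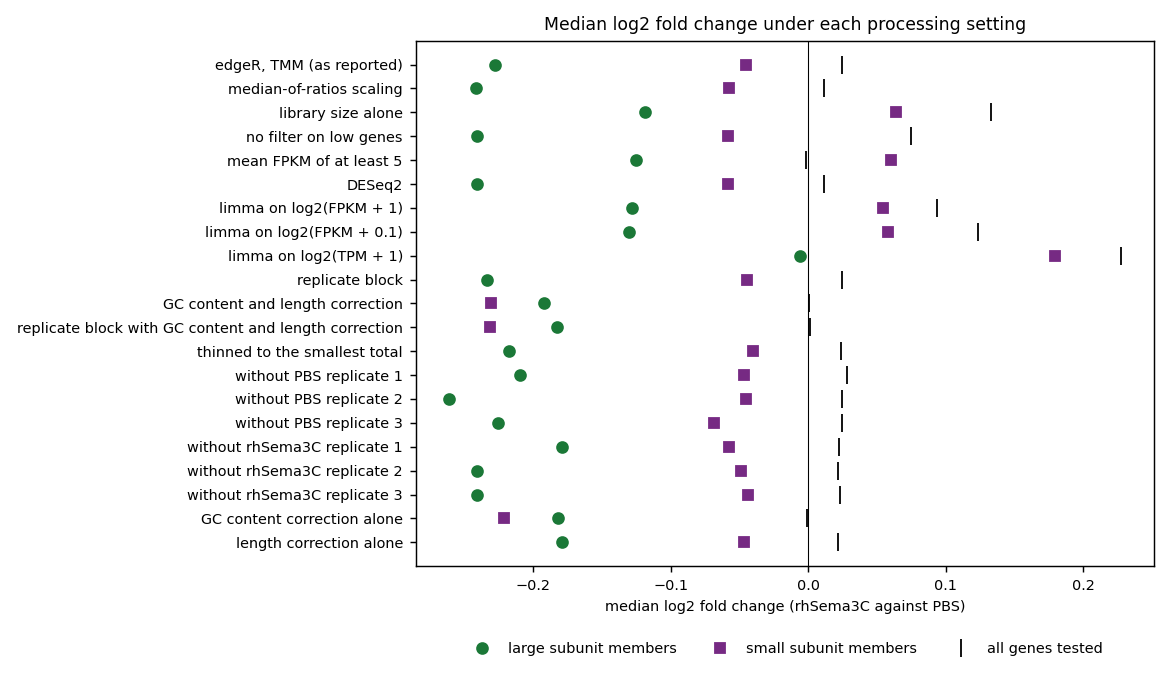
Median log2 fold change (rhSema3C against PBS) of the large subunit members (circles), the small subunit members (squares) and all genes tested (bars) under each of 21 processing settings. The circles stay below the bars in every setting, and the squares move from -0.23 with the GC correction to 0.18 with TPM.

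Subunits of the mitochondrial ribosome with other names also went both ways. DAP3, a GTP-binding protein of the small subunit head, went from 69.5, 65.7 and 70.2 CPM to 99.7, 96.8 and 93.0 CPM, and rose by 0.50 on the log2 scale (SE 0.05, adjusted p = 4.4e-06 by edgeR). PTCD3, an RNA-binding small subunit protein, rose by 0.21 (SE 0.05, adjusted p = 0.00436 by edgeR), a call held in 17 of 21 settings. GADD45GIP1 of the large subunit went from 87.9, 92.7 and 86.9 CPM to 52.8, 56.7 and 58.8 CPM and AURKAIP1 of the small subunit from 103, 96.2 and 96.0 CPM to 66.3, 63.3 and 64.9 CPM. Their falls were 0.67 and 0.60 on the log2 scale (SE 0.05 each, adjusted p = 1.1e-06 and 9.6e-07 by edgeR). CHCHD1 and MRPS18C, at -0.12 and 0.16, were not called.

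The counts of the rRNAs around which these proteins assemble rose, in contrast to the sums of the protein mRNAs. MT-RNR1, the rRNA of the small subunit, stood at 462, 443 and 474 CPM in PBS samples and 1808, 1934 and 1838 CPM in rhSema3C samples. MT-RNR2, that of the large subunit, stood at 2402, 1991 and 2117 CPM against 5890.02, 6298 and 5703 CPM. The log2 fold changes were 2.02 (SE 0.04, adjusted p = 1.9e-10) and 1.46 (SE 0.06, adjusted p = 1.6e-08 by edgeR). Nuclear copies of mitochondrial DNA resemble both genes, so their counts may hold or lose shared reads. The libraries were made with an mRNA kit, so counts of these rRNAs need not follow their amount in the cells, which was not tested. Together they took 0.232% to 0.275% of counts in PBS samples and 0.782% to 0.850% in rhSema3C samples. The share of all mitochondrially encoded genes was lower in rhSema3C samples, at 3.73% to 3.93% against 4.75% to 5.42%.

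Of 30 assembly factors and rRNA-modifying enzymes, 13 were lower and 6 higher, with a median log2 fold change of -0.16. Among all genes tested, 30.6% were lower and 31.7% higher. TFB1M, which dimethylates the small subunit rRNA, rose by 1.42 and MTERF3 rose by 0.75 on the log2 scale. MRM1, an rRNA methyltransferase, fell by 0.86 and the RNA helicase DHX30 fell by 0.58. Of 15 translation factors and mRNA-binding proteins tested, 7 were higher and 3 lower, with a median of 0.14. The initiation factors MTIF2 and MTIF3 rose by 0.60 and 0.50, and the elongation factors TUFM and TSFM fell by 0.56 and 0.53.

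Among 12 genes of mitochondrial DNA transcription and maintenance, POLG2 and SSBP1 rose by 0.75 and 0.26 on the log2 scale. TWNK and TFAM fell by 0.45 and 0.17, and 8 were not called, whereas 62.3% of all genes tested were called (30.6% lower, 31.7% higher). TFAM (adjusted p = 0.0456 by edgeR) was called lower in 8 of 21 settings and stood at 0.053 with TPM, and SSBP1 was called higher in 18 and stood as low as -0.056 with the GC corrections. Of 8 tested regulators of mitochondrial biogenesis, GABPB1, a subunit of GABP, rose by 0.43, and ESRRA, PPRC1 and NRF1 fell by 0.33, 0.30 and 0.21. NRF1 (adjusted p = 0.0479 by edgeR) was called lower in 5 of 20 settings and stood at 0.012 with TPM, while the others of these 4 were called in 17 of the settings each. PPARGC1A and PPARGC1B, the other two of that list, did not pass the filter on low values.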

How the data were processed

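RNA of 3 rhSema3C and 3 PBS samples of LX-2 cells was compared, with groups, replicate numbers, dose and time taken from the sample labels. For each gene and sample the authors deposited a raw whole-number count, and beside it an FPKM value that they had scaled to transcript length and library size. Small FPKM values beside a count of 1 show that fractional estimates were probably rounded up. Cufflinks is named in the paper's methods. The aligner, counter, strand setting and genome build are not given in the sources used here, and the coordinates lie on GRCh38. The number of unused columns with sample values was 0.

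All genes averaging an FPKM of 0.5 or more were fitted together with edgeR 4.0.16 (quasi-likelihood test, TMM factors, R 4.3.3), with Benjamini-Hochberg adjustment over all 14178 genes. Calls used an adjusted p below 0.05. The members and lists were chosen with earlier results of these data known. The rule for named members took, in each subunit, the 5 largest falls and the 5 largest rises among called members whose groups did not overlap, the 2 most abundant members and the one nearest to no change, together with MRPS18A, MRPS18B, MRPS30 and MRPS36, and from each other list the 2 largest changes in either direction. Members named by place in the ribosome, MRPL19, MRPL40 and MRPL45 were added after values were seen. The lists covered subunits with other names, assembly factors, translation factors, DNA maintenance, biogenesis regulators, mitochondrial rRNAs, stellate cell markers and markers of other liver cells. MTRFR and TTR of those lists were not analysed here.

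Alternatives were median-of-ratios scaling, library size alone, other filters, DESeq2 1.42.0, limma 3.58.1 on log2(FPKM + 1), on log2(FPKM + 0.1) and on log2(TPM + 1) with TPM computed from the deposited FPKM, thinning, a replicate block, each sample left out, and splines of 4 degrees of freedom for GC content and length of the longest GENCODE transcript. GC or length alone, the split without MRPS36 and the alternatives for the sums were added after seeing the data. Replicates of 1 group differed by more than counting noise (chi-square per degree of freedom 12.6 to 20.4). Samples with the same replicate number did not deviate together (correlations -0.0041, 0.058 and -0.027), so they were not taken as pairs. The scripts were tested on simulated data. Counts are not molecules, since no molecular identifiers were used.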

Additional observations from a re-analysis of the deposited data

How the results depend on the processing

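All 38 falls and 15 rises of members kept their direction wherever they were called. Some changed sign in settings where they lost the call. Of the falls, MRPL55 was at 0.055 with the GC and length correction and MRPL15 at 0.020 with TPM. Of the rises, MRPL19 and MRPS22 were at -0.086 and -0.074 with the GC and length correction. Only MRPL58 and MRPS10 among the rises were still called with that correction. Scaling moved the medians. With library size alone, 12 large subunit members were higher, as were 39.9% of all genes, with medians of -0.12 (large) and 0.064 (small). With limma on log2(FPKM + 1) the values were 13, 38.6%, -0.13 and 0.054, and with log2(FPKM + 0.1) 13, 38.3%, -0.13 and 0.058. With limma on log2(TPM + 1), 20 large subunit members were higher and 17 lower (median -0.0056) and 15 small subunit members were higher (median 0.18), and 6934 of all genes were higher (48.9%) and 2428 lower (17.1%). The filter at a mean FPKM of 5 gave medians of -0.12 and 0.060 and left 2630 genes higher and 2602 lower, fewer genes being tested.

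The correction for GC content and length gave 3 large and 1 small subunit members higher and a small subunit median of -0.23, and the same counts and median came with the replicate block added. GC content alone also gave 3 and 1, with a small subunit median of -0.22. In these fits, in that order, MRPL42 was at -9.6e-05, -0.0018 and 0.041, MRPL13 at -0.0091, -0.0086 and -0.021, MRPS31 at -0.0059, -0.0045 and 0.0057, MRPL21 at 0.26, 0.26 and 0.25, and MRPS30 at -0.29, -0.29 and -0.31. Length correction alone put MRPL21 at 0.023 and MRPS30 at -0.0058. The cause of the GC dependence was not tested.

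MRPL21 and MRPS30, the members nearest to no change, changed sign elsewhere. MRPL21 was at 0.075 with library size alone, 0.071 with the higher filter, 0.063 and 0.068 with FPKM and pseudocounts of 1 and 0.1, and 0.19 with TPM. MRPS30 was at -0.010 with median-of-ratios scaling, -0.011 without a filter, -0.010 with DESeq2, -0.0013 after thinning and between -0.067 and 0.079 when single samples were left out.

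Members that overlap no other gene were 24 large, 13 of them lower and 3 higher, and 9 small, 2 lower and 4 higher. The small subunit median was then 0.040. The shares over all genes tested were 30.6% lower and 31.7% higher. The ratio of large to small sums changed by -4.23% with FPKM, -11.9% for those members and -0.82% after the GC correction, in place of -6.99%. Without a filter MRPL13 and MRPS36 were no longer called (adjusted p = 0.0568 and 0.0586 by edgeR), and with length correction alone MRPL42 was not (adjusted p = 0.0704 by edgeR). Leaving out single samples gave 5 to 8 small subunit members higher, 5 without PBS replicate 2 and 5 without rhSema3C replicate 2. In those fits 28.7% to 30.3% of all genes were higher.

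The replicate block alone left 24 large subunit members lower and 7 higher, and 12 small subunit members lower and 7 higher. Of all genes, 29.1% were lower and 29.8% higher in that fit. No call of a member changed direction. At 3 samples per group the median standard error of a member's log2 fold change was 0.064.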

Other observations

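Of the genes named after members but not counted among them, the pseudogenes MRPS31P5 and MRPS31P4 held 20.7% and 10.3% as many counts as MRPS31, and MRPL45P2 held 4.33% as many as MRPL45. MRPS31P5 rose by 0.76 on the log2 scale, beside 0.31 for MRPS31, and how reads were shared between the copies is not given in the sources used here. MRPL20-AS1, which overlaps MRPL20 on the other strand, had a log2 fold change of -0.21 (adjusted p = 0.0998 by edgeR) beside -0.65 for MRPL20. MRPL23-AS1, which was too low to be tested, was counted 5, 8 and 14 times in PBS samples and 86, 114 and 69 times in rhSema3C samples, while MRPL23 fell by 0.48 on the log2 scale. MRPL23-AS1 was chosen after its values were seen.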
